A study of Caenorhabditis elegans with 54 samples.

Results

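The mRNA of Caenorhabditis elegans that lack sosi-1 together with the eri-6[e-f] sequence was compared with that of animals that lack sosi-1 alone. The libraries were chosen by assay and genotype: the mRNA libraries labelled sosi-1 eri-6[e-f] and sosi-1, with mut-16 intact, 3 per strain, which makes 6 of the 54 libraries of the series. The series measured small RNA and mRNA in nematode strains with deletions at the eri-6 locus and in Argonaute mutants, and its title places them in a feedback loop that keeps 22G-RNA levels in range. The sosi-1 strain is USC1335, sosi-1{delta}(cmp262) I. The strain called the double deletion here is USC1338, in which allele cmp263 on chromosome I removes eri-6[e-f] and sosi-1 is deleted too. Both therefore lack sosi-1, and the contrast shows what goes with the added loss of eri-6[e-f]. Each genotype is 1 strain, and no wild type was analysed here. All 6 libraries came from whole animals grown at 20 °C and harvested after about 64 h as day 1 adults, from 8000 animals per sample. The growth label names only ergo-1 and prg-1 animals, and how these strains were plated is not stated. The labels mention separate biological replicates for wild type and mut-16 animals, not for these strains. Each p rests on a spread between libraries of a strain that was estimated jointly over all 24 mRNA libraries of 8 strains. In these 6 libraries that spread may be technical.

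The helicase ERI-6/7 is made by joining the pre-mRNAs of eri-6 and eri-7 in trans, and it is needed for the 26G-RNAs that the Argonaute ERGO-1 binds. These 26G-RNAs recruit RNA-dependent RNA polymerases that make 22G-RNAs, many of them in mutator foci built on the scaffold protein MUT-16. The eri-6 locus also gives alternative isoforms, among them e and f, that compete with the trans-spliced product, and in the RefSeq annotation of WBcel235 the gene sosi-1 lies inside eri-6 on chromosome I. 22G-RNAs silence transposons, repeats and many genes, and in adults much of this takes place in the germline.

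Messenger RNA was selected on oligo(dT) beads and read from directional libraries as single 75 nt reads. Total counts, in units of 1e6, were 26.34, 25.04 and 19.99 in sosi-1 and 93.98, 59.62 and 24.05 in the double deletion, so the double deletion was read more deeply in its first 2 libraries. Levels are given as CPM, counts scaled to 1e6 per library, after TMM scaling. The TMM factors were between 1.02 and 1.15 in sosi-1 and between 0.687 and 0.73 in the double deletion. Within a strain, log2 CPM correlated across features at 0.987 to 0.999, and between the strains at 0.925 to 0.956.

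The 6 libraries also differed by gene length class. Genes that span under 1 kb, introns included, took 16.7%, 19.3% and 17.5% of counts in sosi-1 and 31.9% to 34.3% in the double deletion, and the other 18 mRNA libraries of the series ranged from 15.34% to 29.1%. Genes that span over 4 kb took 29.5%, 24.8% and 26.1% in sosi-1 and 12.96%, 13.07% and 11.72% in the double deletion. The median log2 fold change fell with span, from 0.57 below 0.5 kb and 0.85 at 0.5 to 1 kb to -0.30 at 2 to 4 kb and -1.08 above 8 kb. Ribosomal RNA, which bead selection should leave behind, took 1.31% to 1.80% of counts in sosi-1 and 3.12% to 4.10% in the double deletion. Both lie within the 0.615% to 6.53% of the other 18 mRNA libraries. The part of this span pattern in the gene results was not tested, so fold changes are also given with a per-library offset that takes out the trend with gene span, an analysis added after the data were seen. With mut-16 mutated as well, the same deletion went with the opposite trend, from -0.64 below 0.5 kb to 0.50 above 8 kb.

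**Figure D1:**
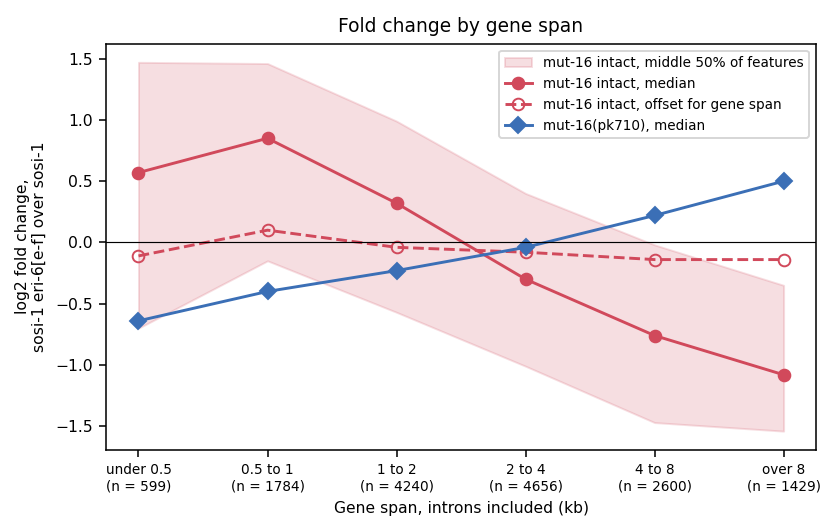
Median log2 fold change (double deletion over sosi-1) of the features tested, by gene span in kb with introns included; the shaded band is the middle 50% of features. With mut-16 intact the median runs from 0.57 in the shortest class to -1.08 in the longest, with mut-16 mutated from -0.64 to 0.50, and with the offset for gene span it stays between -0.14 and 0.10.

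The double deletion differed from sosi-1 at many features. The labels name no preparation batch, so library preparation and strain cannot be told apart in any of these differences. Of 15376 features tested with edgeR's quasi-likelihood test, 2620 (17%) were higher and 3795 (24.7%) were lower in the double deletion, together 41.7%, at an adjusted p below 0.05 and a change of at least 2-fold. These 17% and 24.7% are the background against which each list below is read, and the median log2 fold change of all features was -0.17. The split between the directions rests on the scaling. With library size alone, which moves the median of all features by -0.58, 897 (5.83%) were higher and 6282 (40.9%) lower, together 46.7%. With the offset for gene span 1998 (13%) were higher and 2770 (18%) lower, together 31%. Of the 2620 higher calls 1407 were also made with the offset, and of the 3795 lower calls 2248.

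The 10 largest rises among well expressed features whose groups did not overlap were short genes, 8 of them with a span below 1 kb, and among those with a known role several act in mitochondria. The largest was at F23A7.4, a protein-coding gene of 0.207 kb with no role given in the files: 236, 428 and 352 CPM in sosi-1 and 2102, 2007 and 2854 CPM in the double deletion (log2 fold change 2.78 ± 0.34, adjusted p = 4.73e-07). All 3 double deletion libraries were higher than every sosi-1 library, and the same held at F23A7.8, of 0.204 kb (2.595 ± 0.34). The inner membrane translocase gene tin-13 stood at 64.4, 93.8 and 83.0 CPM in sosi-1 and 379, 363 and 531 CPM in the double deletion (log2 fold change 2.40 ± 0.27, adjusted p = 2.19e-07). The copper chaperone gene for cytochrome c oxidase, cox-17, stood at 10.37, 14.5 and 13.3 CPM in sosi-1 and 53.2, 64.9 and 78.9 CPM in the double deletion (2.37 ± 0.27). The complex I gene nduv-3 stood at 50.4, 64.9 and 54.3 CPM in sosi-1 and 258, 264 and 340.2 CPM in the double deletion (2.35 ± 0.28). The others were aps-3, a subunit of the AP-3 adaptor (2.41 ± 0.27), the ubiquitin-like modifier urm-1 (2.41 ± 0.27), the lectin gene clec-97 (2.37 ± 0.28), W03C9.5 (2.37 ± 0.29) and pen-2, a gamma-secretase subunit (2.35 ± 0.27). With the offset for gene span these 10 rises lay between 1.58 and 2.12, and all 10 were still called.

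Among the 10 largest falls were a drug transporter, cuticle genes and a detoxification enzyme. The P-glycoprotein gene pgp-1, an ATP-driven efflux pump of the intestine, stood at 63.4, 62.0 and 62.3 CPM in sosi-1 and 5.96, 7.22 and 7.26 CPM in the double deletion (log2 fold change -3.20 ± 0.25, adjusted p = 1.08e-08). Its sosi-1 libraries lay within 2 CPM of each other and none overlapped with the double deletion. The cytochrome P450 gene cyp-13A5 stood at 92.9, 27.3 and 29.1 CPM in sosi-1 and 6.21, 5.71 and 7.08 CPM in the double deletion (log2 fold change -2.98 ± 0.38, adjusted p = 7.78e-07). Here 1 sosi-1 library was far above the other 2, and without it the log2 fold change was -2.16. M04C3.1 showed the same unevenness, at 59.9, 22.1 and 22.7 CPM in sosi-1 and 4.08, 3.83 and 6.36 CPM in the double deletion, with -2.90 in full and -2.26 without that library. The collagen genes col-154 (-3.13 ± 0.42) and col-117 (-2.91 ± 0.47) and the cuticlin gene cut-2 (-2.88 ± 0.52) were highest in sosi-1 replicate 2, as described for the cuticle below. The remaining falls were at the MATH domain gene math-4 (-2.90 ± 0.24), F38B6.4 (-2.77 ± 0.23), sdz-24 (-2.77 ± 0.33) and R08E3.2 (-2.67 ± 0.32).

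**Figure D2:**
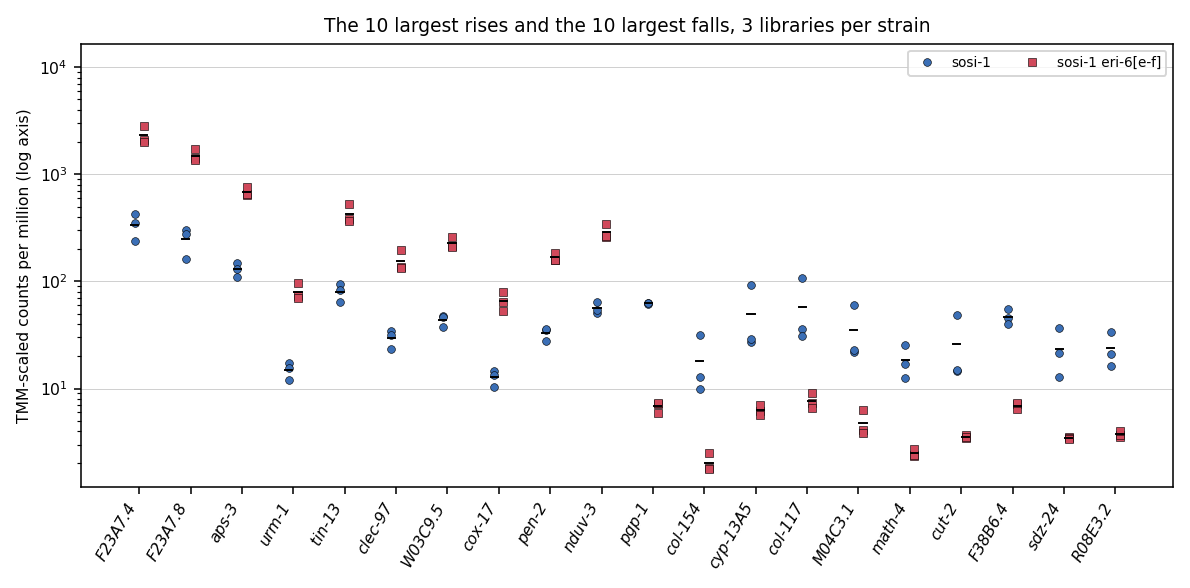
TMM-scaled CPM on a log axis for the 10 features with the largest rise and the 10 with the largest fall, with 1 point per library, 3 libraries per strain and a bar at the mean. In each of the 20 features the 2 strains do not overlap, and F23A7.4 runs from 236 CPM in the lowest sosi-1 library to 2854 CPM in the highest double deletion library.

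As differences in TMM-scaled CPM, which are relative levels, the gains were led by ribosomal RNA and ribosomal protein genes. Bead selection should leave ribosomal RNA behind, and its share of counts lay within the range of the other mRNA libraries. The large subunit ribosomal RNA gene rrn-3.1 stood at 7915, 11666 and 8626 CPM in sosi-1 and 25176, 32716 and 40082 CPM in the double deletion (log2 fold change 1.80 ± 0.35, adjusted p = 0.000116), the small subunit gene rrn-1.2 rose by 2.03 ± 0.32 on the log2 scale, and the entry MTCE.26 of the mitochondrial genome by 1.52 ± 0.26. The ribosomal protein genes rpl-41.2 (2.08 ± 0.27) and rpl-10L (2.08 ± 0.21) completed the 5 largest gains. The 5 largest losses were 4 germline genes and the polyubiquitin gene ubq-1 (-1.73 ± 0.28). The eggshell gene cbd-1, which encodes a chitin-binding protein, stood at 1794, 2199 and 2535 CPM in sosi-1 and 699.7, 700.4 and 525 CPM in the double deletion (log2 fold change -1.76 ± 0.34, adjusted p = 0.000104). The other losses were at the eggshell gene cpg-1 (-2.14 ± 0.32), the germline RNA helicase gene cgh-1 (-1.43 ± 0.29) and the yolk receptor gene rme-2 (-1.82 ± 0.41). No library of one strain overlapped with the other in any of these 10 features.

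At the targeted locus the deposited tables list sosi-1 and entries named eri.67 and eri6.1, and say nothing of how far the latter 2 extend. The gene sosi-1 had 0 counts in all 6 libraries, as in the other strains that carry a sosi-1 deletion. That is a weak check of the labels, since its level was also at most 0.314 CPM in the strains eri-6[e-f] and prg-1; ergo-1. The entry eri6.1 stood at 2.11, 2.596 and 2.297 CPM in sosi-1 and 0.524, 0.603 and 0.726 CPM in the double deletion (log2 fold change -1.97 ± 0.22, adjusted p = 2.02e-07), 178 counts over the sosi-1 libraries and 74 over the double deletion libraries. The groups did not overlap, and it was not tested whether the deleted stretch is part of that entry. The entry eri.67, whose name pairs eri-6 with eri-7, stood at 34.4, 25.8 and 41.6 CPM in sosi-1 and 44.5, 41.1 and 37.04 CPM in the double deletion. The 2 groups overlapped and no change was called (log2 0.27 ± 0.22, adjusted p = 0.298), and with library size alone the sign turned to -0.31. In the small RNA libraries of the same strains both entries were lower in the double deletion, eri6.1 at 3560 ± 134 against 72.96 ± 12.58 CPM (SD, n = 3) and eri.67 at 246 ± 11.97 against 71.8 ± 3.87 CPM.

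The genes that the other strains of the series lack, all intact here, were lower in the double deletion. The gene mut-16 stood at 67.7, 60.7 and 68.4 CPM in sosi-1 and 24.6, 25.5 and 18.6 CPM in the double deletion (log2 fold change -1.52 ± 0.32, adjusted p = 0.000228). The 26G-RNA Argonaute gene ergo-1 stood at 209.7, 219 and 269 CPM in sosi-1 and 71.1, 74.2 and 51.1 CPM in the double deletion (log2 fold change -1.83 ± 0.32, adjusted p = 3.02e-05). The nuclear germline Argonaute gene hrde-1 stood at 453, 542 and 671 CPM in sosi-1 and 171, 173 and 118 CPM in the double deletion (log2 fold change -1.85 ± 0.34, adjusted p = 5.47e-05). The piRNA Argonaute gene prg-1 was the least changed of these 4, at 202, 265 and 303 CPM in sosi-1 and 113, 119.1 and 111 CPM in the double deletion (log2 fold change -1.16 ± 0.25, adjusted p = 0.000381). No library of one strain overlapped with the other in any of the 4. With the offset for gene span the values were -0.86 for mut-16, -0.98 for ergo-1 and -0.86 for prg-1, each with an adjusted p of at most 0.00592 but below 2-fold, and -1.40 for hrde-1, still called. In small RNA of the same strains none of the 4 was called, with log2 fold changes of 0.08, 0.09, 0.10 and 0.29 for mut-16, ergo-1, prg-1 and hrde-1.

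**Figure D3:**
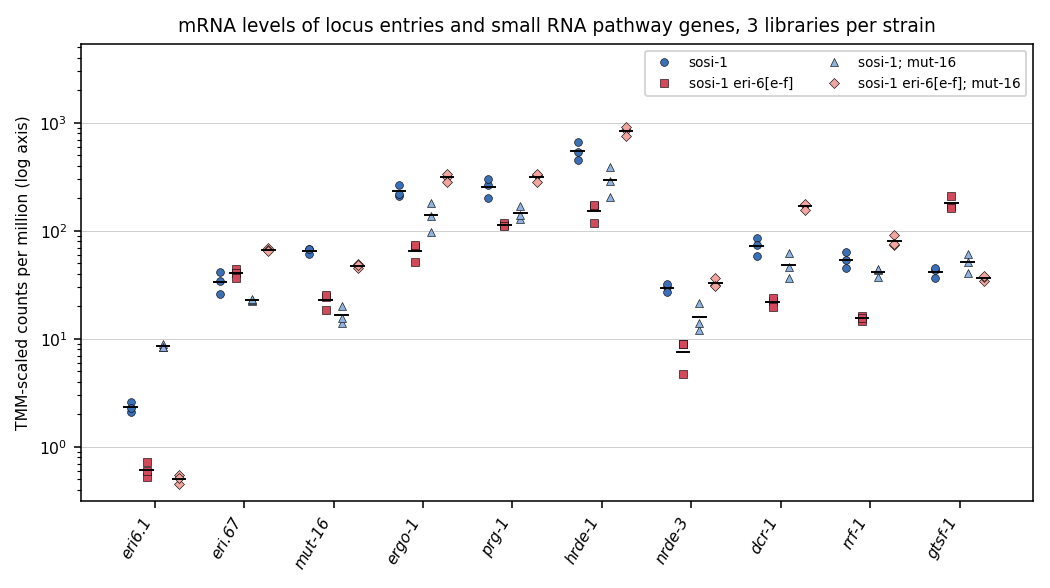
TMM-scaled CPM of mRNA on a log axis for the 2 locus entries and 8 small RNA pathway genes in sosi-1, the double deletion and the same 2 genotypes with mut-16(pk710), of which the one with the added eri-6[e-f] deletion is called the triple mutant, with 1 point per library, 3 libraries per strain and a bar at the mean. From mut-16 to rrf-1 the double deletion lies below sosi-1, and the triple mutant lies above sosi-1; mut-16, while gtsf-1 is highest in the double deletion.

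The small RNA pathway lists held more members that fell than rose, except for the piRNA list. Of 22 Argonaute genes 17 fell and none rose, with a median of -1.33. The nuclear somatic Argonaute gene nrde-3 stood at 30.3, 26.9 and 32.1 CPM in sosi-1 and 8.92, 8.93 and 4.72 CPM in the double deletion (log2 fold change -1.97 ± 0.32, adjusted p = 1.23e-05). Of 14 genes of the ERI complex and 26G-RNA formation 7 fell and 1 rose (median -0.99). Dicer, dcr-1, stood at 85.1, 58.4 and 73.4 CPM in sosi-1 and 22.4, 24.2 and 19.6 CPM in the double deletion (log2 fold change -1.71 ± 0.39, adjusted p = 0.000561). The gene that rose was gtsf-1, which encodes a small zinc finger protein that joins the ERI complex, at 36.6, 43.1 and 45.8 CPM in sosi-1 and 169, 163 and 210.3 CPM in the double deletion (log2 fold change 2.11 ± 0.23, adjusted p = 2.19e-07). All dcr-1 libraries of the double deletion lay below, and all gtsf-1 libraries above, those of sosi-1. The spans of these 2 genes are 8.31 kb and 0.665 kb. The offset put dcr-1 at -0.89 and below 2-fold, and gtsf-1 at 1.31 and still called.

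Of 19 mutator and 22G-RNA genes 8 fell and 2 rose (median -0.39). The RNA-dependent RNA polymerase gene rrf-1 stood at 63.3, 45.4 and 54.2 CPM in sosi-1 and 14.6, 16.3 and 15.6 CPM in the double deletion (log2 fold change -1.81 ± 0.39, adjusted p = 0.000323). The secondary siRNA factors rsd-2 and rde-10 fell by 1.81 ± 0.30 and 1.70 ± 0.28, and the NYN domain gene nyn-1 rose by 1.31 ± 0.31, from 30.9, 42.3 and 43.7 to 107, 111 and 72.1 CPM. Of 20 genes of nuclear RNAi and H3K9 methylation 9 fell and 2 rose (median -0.97). The H3K9 methyltransferase gene met-2 fell by 1.62 ± 0.36, while the HP1 gene hpl-1 rose from 5.45, 6.78 and 6.35 to 14.5, 14.2 and 10.2 CPM (1.07 ± 0.19). The piRNA pathway list ran the other way, with 6 of 16 higher, 3 lower and a median of 0.89. Its largest rise was at pid-1, a subunit of the PETISCO complex that processes piRNA precursors, at 23.2, 33.8 and 36.9 CPM in sosi-1 and 107, 107 and 113 CPM in the double deletion (log2 fold change 1.80 ± 0.21, adjusted p = 3.6e-07). The PETISCO gene erh-2 rose by 1.56 ± 0.21. The list, compiled from memory, also counts picd-1, a gene of 13.4 kb whose place in this pathway was not checked. That gene fell by 1.59 ± 0.33 and is among the 3 lower members. Under the offset for gene span 7 of the 22 Argonaute genes fell (median -0.91), against 2 of the ERI list, 3 of the mutator list and 2 of the nuclear RNAi list, and 2 of the piRNA list rose. For the ERI, mutator and nuclear RNAi lists these shares do not stand above the 18% of all features that fell with the offset. Nor do the 2 of 16 of the piRNA list stand above the 13% of all features that rose with it, while its median was 0.66.

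The lists of recalled pathway targets had 7 of 25 and 4 of 12 members called. Of 25 recalled ERGO-1 targets 5 rose and 2 fell, with a median of 0.26 that turns to -0.33 with library size alone and to -0.06 with the offset, and 3 rose without either sosi-1 replicate 2 or double deletion replicate 3. The member named by the rule, C44B11.6, stood at 8.48, 8.49 and 7.67 CPM in sosi-1 and 15.2, 17.4 and 22.9 CPM in the double deletion (log2 fold change 1.16 ± 0.26, adjusted p = 0.000562). Its groups did not overlap, and it was below 2-fold with the offset (0.50). Of 12 recalled targets of WAGO Argonautes and HRDE-1 4 rose and none fell (median 0.90), 2 without sosi-1 replicate 1. C46G7.5 rose by 1.54 ± 0.23 and W09B7.2 by 1.21 ± 0.27, from 1.55, 3.76 and 4.11 to 7.77, 7.77 and 5.93 CPM.

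Germline and oocyte genes were lower at more members than higher. In whole animals, fewer cells of a type and less RNA per cell cannot be told apart. Of 48 oocyte and eggshell genes 19 fell and 9 rose (median -0.79). The oocyte RNA-binding gene lin-41 stood at 317, 358 and 469 CPM in sosi-1 and 90.2, 92.0 and 60.3 CPM in the double deletion (log2 fold change -2.23 ± 0.35, adjusted p = 8.2e-06), and the eggshell gene cpg-1 at 1405, 1753 and 2406 CPM in sosi-1 and 459, 457 and 345 CPM in the double deletion. In contrast, cpg-8, another chondroitin proteoglycan gene, stood at 100.3, 111 and 115.97 CPM in sosi-1 and 505, 524 and 481 CPM in the double deletion (log2 fold change 2.21 ± 0.21, adjusted p = 8.81e-08). In none of these 3 did the groups overlap. Of 24 P granule and Z granule genes 11 fell and none rose (median -0.96). Genes of the MEG proteins that assemble P granules had the largest falls, with meg-3 at 59.2, 60.3 and 83.9 CPM in sosi-1 and 14.8, 14.9 and 10.8 CPM in the double deletion (log2 fold change -2.32 ± 0.35, adjusted p = 5.51e-06), meg-2 at -2.18 ± 0.37 and meg-1 at -2.098 ± 0.34.

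Of 46 mitotic germline and meiosis genes 15 fell and 7 rose (median -0.44). The Notch receptor gene glp-1, which keeps germline stem cells in division, stood at 175, 166 and 189 CPM in sosi-1 and 47.8, 46.4 and 31.7 CPM in the double deletion (log2 fold change -2.07 ± 0.41, adjusted p = 0.00012). The poly(A) polymerase gene gld-2 and the helicase gene mog-1 fell by 1.96 ± 0.29 and 1.95 ± 0.38, and the chromosome axis gene htp-2 rose by 1.86 ± 0.20. Of 56 cell cycle and cytokinesis genes 26 fell and 7 rose (median -0.76). The centrosome scaffold gene spd-5 stood at 246, 212 and 289 CPM in sosi-1 and 58.1, 62.6 and 47.5 CPM in the double deletion (log2 fold change -2.15 ± 0.41, adjusted p = 8.71e-05). The gene csc-1, which encodes a subunit of the chromosomal passenger complex, rose by 1.88 ± 0.19. Of 33 genes of sex determination and germline switches 15 fell and 4 rose (median -0.49, or 0.04 with the offset), with the dosage compensation gene sdc-1 at -2.05 ± 0.34 and the Nanos gene nos-2 at 1.79 ± 0.23. Of 21 early embryo genes 5 fell and 3 rose (median -0.05). Some of the named genes that fell, lin-41, glp-1, gld-2 and sdc-1, span 6.93 to 16.45 kb. This range leaves out cpg-1, mog-1, spd-5 and the meg genes, which also fell. The genes cpg-8, htp-2, csc-1 and nos-2, which rose, span 0.828 to 1.43 kb. Median spans were 2.13 kb for the oocyte list, 2.97 kb for P granules, 2.61 kb for meiosis and 2.97 kb for the cell cycle. With the offset 14 of 48 genes of the oocyte list and 18 of 56 of the cell cycle list fell, against 18% of all features. For the P granule list 6 of 24 fell and for the meiosis list 10 of 46, which is not far from that share.

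Most major sperm protein genes fell, as did fewer of the other sperm genes, and since most are short the offset moved them further down. Of 33 major sperm proteins, which drive the crawling of sperm, 25 fell and none rose, with a median of -1.27, and with the offset all 33 fell (median -1.96). The gene msp-19 stood at 8.58, 11.8 and 10.5 CPM in sosi-1 and 3.03, 3.23 and 2.06 CPM in the double deletion (log2 fold change -1.86 ± 0.23, adjusted p = 6.62e-07). The gene msp-59 stood at 13.6, 19.7 and 13.4 CPM in sosi-1 and 4.98, 4.48 and 5.63 CPM in the double deletion (log2 fold change -1.64 ± 0.36, adjusted p = 0.000429). Both were higher in every sosi-1 library than in any double deletion library. Major sperm proteins took 0.0276%, 0.0318% and 0.0234% of counts in sosi-1 and 0.00746%, 0.00733% and 0.00777% in the double deletion, against 0.00366% to 0.474% in the other strains. The msp genes are close copies of each other, so the split of estimated counts between them is uncertain. Of 60 other spermatogenesis genes 25 fell, 2 rose and 33 were not called (median -0.84), and with the offset 37 fell. The sperm gene ssq-2 stood at 13.2, 17.3 and 13.1 CPM in sosi-1 and 4.81, 4.66 and 4.78 CPM in the double deletion (log2 fold change -1.61 ± 0.28, adjusted p = 2.4e-05). The CPEB gene cpb-1, needed to make sperm, fell by 1.80 ± 0.32, and the V-ATPase gene spe-5 rose by 1.04 ± 0.20.

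The cuticle lists fell at most of their members. Of 123 numbered col collagens 72 fell and 21 rose (median -1.52), and with the offset 77 fell and 3 rose. The gene col-154 stood at 12.7, 31.6 and 9.97 CPM in sosi-1 and 2.51, 1.81 and 1.76 CPM in the double deletion (log2 fold change -3.13 ± 0.42, adjusted p = 1.45e-06), and col-169 at 8.52, 19.6 and 5.72 CPM in sosi-1 and 1.86, 1.67 and 0.908 CPM in the double deletion. Both were highest in sosi-1 replicate 2, and without it col-154 was at -2.46, col-169 at -2.19, col-117 at -2.11 and 56 collagens fell (median -0.92). Among the collagens that rose was col-179, at 245, 278 and 236 CPM in sosi-1 and 854, 809.6 and 950.0 CPM in the double deletion (log2 fold change 1.78 ± 0.24, adjusted p = 1.28e-06). The whole list took 2.15%, 2.41% and 1.83% of counts in sosi-1 and 2.53%, 2.46% and 3.22% in the double deletion. Whether the collagens that rose are the more abundant ones was not tested. Of 22 collagens that set body shape 17 fell and 2 rose (median -1.71), 13 without sosi-1 replicate 2 (median -1.08). The gene sqt-1 stood at 17.7, 45.1 and 15.1 CPM in sosi-1 and 5.67, 5.41 and 3.33 CPM in the double deletion (log2 fold change -2.41 ± 0.41, adjusted p = 2.05e-05). The genes sqt-2 and lon-3 fell by 2.304 ± 0.42 and 2.46 ± 0.47 and shared the high second sosi-1 library, while mec-5, a collagen around touch neurons, rose by 1.12 ± 0.23. Without that library sqt-1 was at -1.74, sqt-2 at -1.52 and lon-3 at -1.50, all still called.

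Of 52 moulting and epidermal genes 33 fell and 3 rose (median -1.55), and with the offset 21 fell and 1 rose (median -0.80). The cuticlin gene cut-2 stood at 14.5, 49.1 and 14.8 CPM in sosi-1 and 3.66, 3.46 and 3.51 CPM in the double deletion (log2 fold change -2.88 ± 0.52, adjusted p = 5.42e-05), and at -2.04 without the second sosi-1 library. The hedgehog-related gene wrt-6 fell by 2.56 ± 0.39, or by 1.96 without that library, and grd-3, of a related family, rose by 1.71 ± 0.21. The gene myrf-1, whose membrane-bound protein drives moulting, stood at 15.32, 16.04 and 16.03 CPM in sosi-1 and 4.14, 4.18 and 2.66 CPM in the double deletion (log2 fold change -2.08 ± 0.24, adjusted p = 2.5e-07) and was even among the sosi-1 libraries, unlike cut-2. The nuclear receptor gene nhr-23, which times moults, fell by 1.60 ± 0.31.

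Most ribosomal protein and histone genes rose, as did fewer of the genes for respiration. Of 75 ribosomal protein genes 57 rose and none fell (median 1.39), 34 with library size alone and 25 with the offset. The gene rps-28 stood at 742, 1082 and 935 CPM in sosi-1 and 3700.1, 3907 and 5324 CPM in the double deletion (log2 fold change 2.23 ± 0.27, adjusted p = 4.38e-07), and rpl-27A at 1313, 1945 and 1709.5 CPM in sosi-1 and 6784, 7224 and 7832 CPM in the double deletion (log2 fold change 2.14 ± 0.24, adjusted p = 2.79e-07). The lowest double deletion library was above the highest sosi-1 library in both. The list took 8.78%, 11.58% and 10.42% of all counts in sosi-1 and 18.6%, 18.7% and 19.7% in the double deletion, against 9.302% to 15.9% in the other strains. Of 64 histone genes 47 rose and 2 fell (median 1.27), 23 with library size alone and 21 with the offset. The histone gene his-60 stood at 9.38, 17.01 and 15.35 CPM in sosi-1 and 60.02, 60.6 and 61.6 CPM in the double deletion (log2 fold change 2.13 ± 0.21, adjusted p = 9.84e-08). Most histone mRNAs carry no poly(A) tail and come from near-identical copies, so their levels in bead-selected RNA are uncertain. Of 43 oxidative phosphorylation genes 18 rose, 1 fell and 24 were not called (median 0.77), and with the offset 10 rose. The ATP synthase gene asg-1 stood at 142, 211 and 186 CPM in sosi-1 and 700.1, 713 and 767 CPM in the double deletion (log2 fold change 2.02 ± 0.22, adjusted p = 1.61e-07), and the cytochrome c oxidase gene cox-5B rose by 1.79 ± 0.23. The median gene spans of these 3 lists are 0.75, 0.38 and 1.28 kb.

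Muscle genes leaned higher and neuron genes lower. Of 31 body wall muscle genes 10 rose and 3 fell (median 0.81). The troponin C gene pat-10 stood at 1248, 1209 and 871 CPM in sosi-1 and 2632, 2662 and 3828 CPM in the double deletion (log2 fold change 1.45 ± 0.28, adjusted p = 9.62e-05), and the giant kinase gene unc-22, of 38.3 kb, at 34.1, 17.05 and 9.82 CPM in sosi-1 and 8.36, 8.84 and 7.32 CPM in the double deletion (log2 fold change -1.31 ± 0.33, adjusted p = 0.00139). The muscle counts rest on scaling and on single libraries: 4 rose without double deletion replicate 3, 14 rose and none fell without sosi-1 replicate 1, 6 fell without sosi-1 replicate 3, and with library size alone none rose and 9 fell. With the offset 9 rose and none fell (median 0.60). Of 26 neuron genes 12 fell and 1 rose (median -1.03), and with the offset 6 fell (median -0.29). The synaptic vesicle priming gene unc-13 stood at 32.4, 11.4 and 8.80 CPM in sosi-1 and 2.35, 2.46 and 2.18 CPM in the double deletion (log2 fold change -2.91 ± 0.36, adjusted p = 5.53e-07). Its groups did not overlap, and without the high first sosi-1 library it was at -2.104. The touch neuron tubulin gene mec-7 fell by 1.74 ± 0.23, and unc-119 rose by 1.13 ± 0.19. Of 124 neuropeptide and insulin genes 32 rose and 6 fell (median 0.63), 19 rose without double deletion replicate 3 and 3 with library size alone, and with the offset 15 rose and 13 fell. The gene nlp-36 stood at 97.5, 99.2 and 73.6 CPM in sosi-1 and 217, 224 and 304 CPM in the double deletion (log2 fold change 1.46 ± 0.28, adjusted p = 0.000116).

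Intestinal and metabolic genes moved in both directions. None of the 6 vitellogenin genes, which encode yolk proteins, was called (median -0.31, or 0.33 with the offset, where 1 rose), and with library size alone 2 fell. They took 8.27%, 5.96% and 5.91% of counts in sosi-1 and 3.25%, 3.44% and 3.63% in the double deletion, against 0.896% to 9.01% in the other strains. Of 30 intestine genes 9 fell and 2 rose (median -0.28), and 4 fell without sosi-1 replicate 1. Of 49 fat metabolism genes 9 fell and 5 rose (median -0.11, or 0.04 with the offset), and 8 rose without sosi-1 replicate 1. The lysosomal lipase gene lipl-1 stood at 38.5, 3.14 and 2.74 CPM in sosi-1 and 1.14, 1.09 and 0.605 CPM in the double deletion (log2 fold change -3.90 ± 0.72, adjusted p = 6.67e-05), which rests on the first sosi-1 library, and without that library it was at -1.55 and still called. The lipase genes lipl-2 and lipl-3 had the same high library, at 20.4 and 29.1 CPM, and without it were at -0.53 (adjusted p = 0.374) and -0.49 (adjusted p = 0.225). The metallothionein gene mtl-1, a stress-induced metal binder, went the same way, at 20.8, 2.44 and 2.93 CPM in sosi-1 and 1.52, 1.21 and 1.76 CPM in the double deletion (log2 fold change -2.59 ± 0.93, adjusted p = 0.0189), and at -0.87 (adjusted p = 0.465) without that library. Its call was also lost without double deletion replicate 1 (adjusted p = 0.0537) or 2 (adjusted p = 0.0633). The metallothionein gene mtl-2 went the other way, with a log2 fold change of 1.11. That call was lost without double deletion replicate 3 (0.79, adjusted p = 0.0618), with library size alone (0.51) and with the offset (0.37). The lipid-binding gene lbp-9 was even within each strain, at 475, 646 and 662 CPM in sosi-1 and 2179, 2209 and 2283 CPM in the double deletion (log2 fold change 1.90 ± 0.20, adjusted p = 1.39e-07).

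Defence, detoxification and the large gene families gave mixed counts. Of 158 detoxification genes 46 fell and 19 rose (median -0.58), and 29 fell without sosi-1 replicate 1. The UDP-glucuronosyltransferase gene ugt-6 fell by 1.92 ± 0.28, and the glutathione transferase gene gst-7 stood at 111, 131 and 145 CPM in sosi-1 and 477, 495 and 454 CPM in the double deletion (log2 fold change 1.88 ± 0.19, adjusted p = 1.14e-07). Of 136 C-type lectin genes 50 fell and 16 rose (median -0.58). The lectin gene clec-160 fell by 2.11 ± 0.28 and clec-209 rose by 2.17 ± 0.27. Of 19 pals genes, many of them in the intracellular pathogen response, 10 fell and none rose (median -1.50), and with the offset 12 fell. The gene pals-24 stood at 19.6, 7.25 and 9.97 CPM in sosi-1 and 2.88, 2.69 and 5.33 CPM in the double deletion (log2 fold change -1.80 ± 0.34, adjusted p = 9.53e-05). Of 87 antimicrobial and lysozyme genes 14 rose and 12 fell (median 0.14, or -0.44 with library size alone and -0.42 with the offset), and 23 rose without sosi-1 replicate 1 and 9 without double deletion replicate 3. The infection response gene irg-7 stood at 1002, 873 and 546 CPM in sosi-1 and 161, 167 and 155 CPM in the double deletion (log2 fold change -2.33 ± 0.23, adjusted p = 9.74e-08), and the saposin-like gene spp-17 at 188, 263 and 245 CPM in sosi-1 and 844, 886 and 1101 CPM in the double deletion.

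Of the nuclear hormone receptor genes 46 fell, 5 rose and 141 were not called (median -0.47), and 23 fell without sosi-1 replicate 1. Of 195 F-box genes 36 rose and 35 fell (median -0.03), and 16 fell without that library. Among them fbxc-42 rose by 1.98 ± 0.24 and fbxa-182 fell by 2.13 ± 0.29. Of 68 BATH and MATH domain genes 21 rose and 20 fell (median 0.05, or -0.51 with library size alone and -0.13 with the offset), with bath-28 at 1.79 ± 0.20 and math-27 at -2.46 ± 0.39, or at -1.76 without sosi-1 replicate 1. Of 55 chemoreceptor genes 10 fell and 6 rose (median -0.04, or 0.12 with the offset and 0.02 with DESeq2), and 4 fell without sosi-1 replicate 1 and 10 rose without sosi-1 replicate 3. The chemoreceptor gene sri-40 stood at 33.1, 51.4 and 52.6 CPM in sosi-1 and 179, 183 and 149 CPM in the double deletion (log2 fold change 1.90 ± 0.21, adjusted p = 2.05e-07). Of 21 heat shock genes 3 rose and 2 fell (median -0.49), the latter hsp-110 (-1.41 ± 0.27) and hsp-4 (-1.01 ± 0.29), chaperone genes of the cytosol and the endoplasmic reticulum. Of 26 genes of the vulva, uterus and gonad sheath 7 fell and 4 rose (median -0.12, or 0.34 with the offset), with the EGF receptor gene let-23 at -1.92 ± 0.33. Of 4 long intergenic noncoding RNA genes 2 rose. List counts of 5 or fewer moved by at most 3 when 1 library was left out.

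Some calls rested on single libraries, on the scaling or on gene span. Without sosi-1 replicate 1 the log2 fold change was 0.99 at hpl-1, 0.944 at spe-5, 0.88 at W09B7.2 and -0.71 at unc-22, none of them called. Without double deletion replicate 3 C44B11.6 was at 0.96, without double deletion replicate 2 spe-5 was at 0.99, and without double deletion replicate 1 hpl-1 was at 0.985. The gene hsp-4 was below 2-fold without sosi-1 replicate 3 (-0.89), without double deletion replicate 3 (-0.89) and with DESeq2 (-0.98). Under the offset for gene span the calls at rsd-2, met-2, hpl-1, picd-1, erh-2, spe-5, gld-2, pat-10, unc-22, nlp-36, grd-3, nhr-23 and hsp-4 were lost. With library size alone those at nyn-1, hpl-1, erh-2, C44B11.6, C46G7.5, W09B7.2, spe-5, pat-10, unc-119, nlp-36, mec-5 and MTCE.26 were lost.

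**Figure D4:**
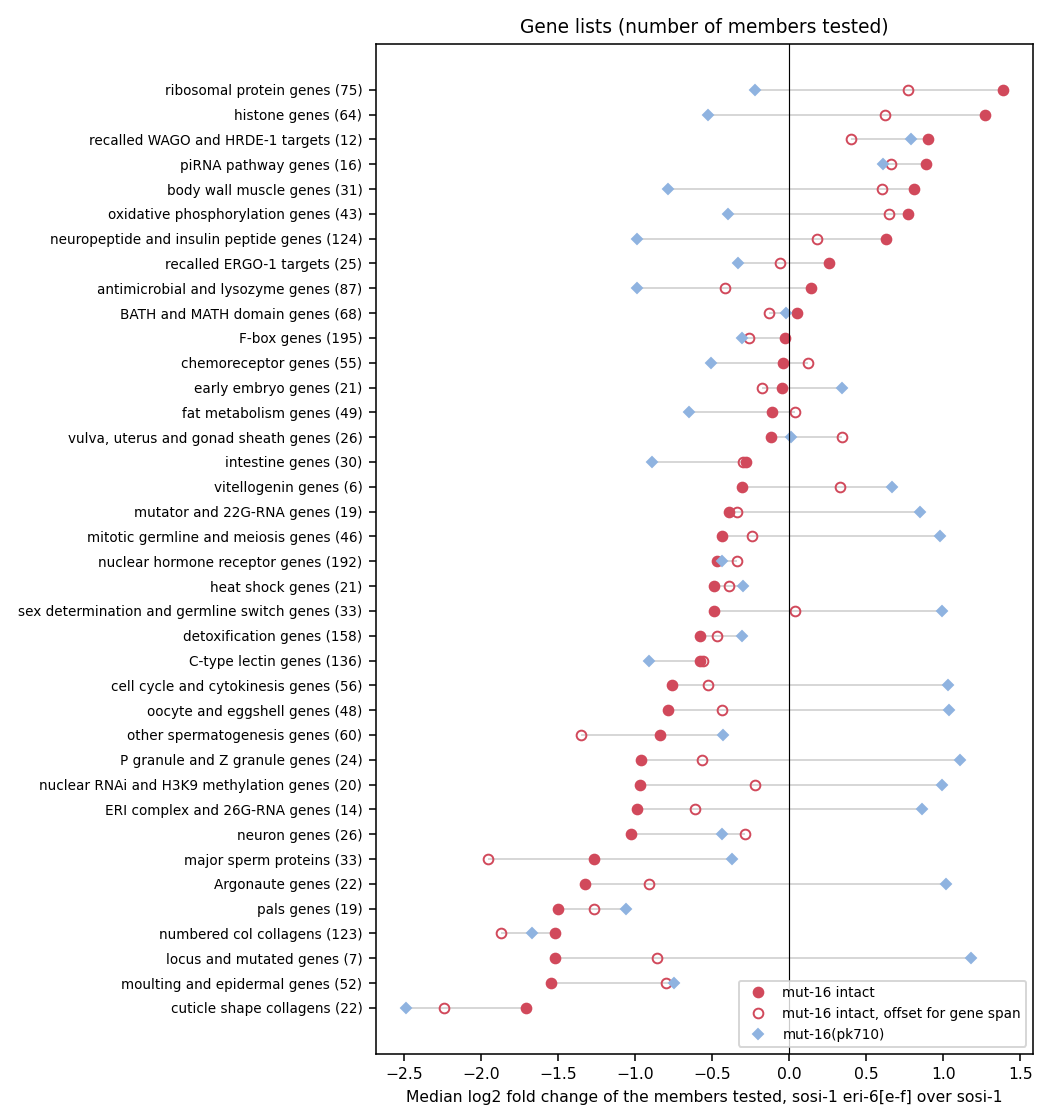
Median log2 fold change (double deletion over sosi-1) of the members tested in each gene list of 5 or more, with mut-16 intact (filled circles), with the offset for gene span (open circles) and with mut-16 mutated (diamonds). Ribosomal protein genes are highest with mut-16 intact at 1.39 and the collagens that set body shape lowest at -1.71, and Argonaute genes go from -1.33 with mut-16 intact to 1.02 with it mutated.

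The small RNA libraries of the same 2 strains changed at far fewer features. Of 15380 features tested 9.43% were called: 1382 (8.99%) had less and 68 (0.442%) had more small RNA in the double deletion. Of the 1382, 1215 were tested in mRNA too, where 464 (38.2%) fell and 35 (2.88%) rose, with a median of -0.88. Over all 12920 features tested in both assays 24.8% fell and 18.5% rose, with a median of -0.15. Under the offset for gene span the medians were -1.08 and -0.01. Sperm genes are among them: 16 of 32 major sperm proteins and 36 of 59 other spermatogenesis genes had less small RNA, and msp-19 went from 84 small RNA counts over 3 libraries to 14, ssq-2 from 224 to 40.

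Deleting eri-6[e-f] on top of sosi-1 was also done in animals with the mutation mut-16(pk710), strains USC1337 and USC1355, with 3 libraries each. There 1333 features (8.67%) were higher and 1848 (12%) lower, together 20.7%. The difference between the 2 deletion effects, tested as an interaction over separate libraries, was called at 7169 features (46.6%), higher at 3555 (23.1%) and lower at 3614 (23.5%), and at 5750 of these the effects had opposite signs. The offset for gene span gave 2693 higher and 3073 lower, of which 1801 and 2360 were also called without it. Features called lower with mut-16 intact and higher with it mutated numbered 888, and 159 went the other way. In both backgrounds 614 were called lower and 26 higher. Since the interaction was called at 46.6% of all features, a difference at a single gene is not particular to it. The median interaction also fell with gene span, from 1.34 below 0.5 kb to -1.45 above 8 kb. The list values below are given without the offset.

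The small RNA pathway genes were among those that turned. With mut-16 mutated, hrde-1 changed by 1.52 ± 0.33, ergo-1 by 1.18 ± 0.31, mut-16 by 1.52 ± 0.32 and dcr-1 by 1.81 ± 0.39 on adding the deletion. The differences between the backgrounds were -3.37 ± 0.47 for hrde-1 (adjusted p = 5.56e-06), -3.003 ± 0.44 for ergo-1 and -3.03 ± 0.45 for mut-16. Of the 22 Argonaute genes 12 rose and 1 fell there, and 21 were called lower in the interaction. Their median span is 4.17 kb. Their median interaction was -2.18, against -0.85 for all features that span 4 to 8 kb. Oocyte and eggshell genes rose at 26 of 48 (median 1.04), P granule and Z granule genes at 19 of 24 (1.11) and cell cycle genes at 35 of 56 (1.03), where with mut-16 intact their medians were -0.79, -0.96 and -0.76. The gene lin-41 had means of 381 ± 78.6 CPM in sosi-1 and 80.8 ± 17.8 in the double deletion, against 177 ± 73.99 in sosi-1; mut-16 and 511 ± 49.2 in the triple mutant.

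Ribosomal protein genes did not rise with mut-16 mutated (none of 75, with 1 lower and a median of -0.22), and 61 were called higher in the interaction. Their median span is 0.75 kb and their median interaction was 1.62. All features that span 0.5 to 1 kb were close to this, at 1.32 in the interaction and -0.40 with mut-16 mutated. Muscle genes fell at 12 of 31 and rose at 2 (median -0.79), against 10 higher and 3 lower with mut-16 intact. The cuticle lists kept the sign of their medians. Numbered collagens fell at 76 of 123 and rose at 0 (median -1.67), where 21 rose with mut-16 intact. The collagens that set body shape fell at 19 of 22 (-2.49). The interaction was called higher at 54 and lower at 9 of the numbered collagens, and higher at 2 of those that set body shape. The gene sqt-1 fell by 2.41 ± 0.41 with mut-16 intact and by 3.10 ± 0.43 with it mutated. At the locus, eri6.1 fell by 4.04 ± 0.21 with mut-16 mutated and eri.67 rose by 1.54 ± 0.23, with interactions of 2.08 ± 0.30 and -1.27 ± 0.32 (adjusted p = 0.00143).

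**Figure D5:**
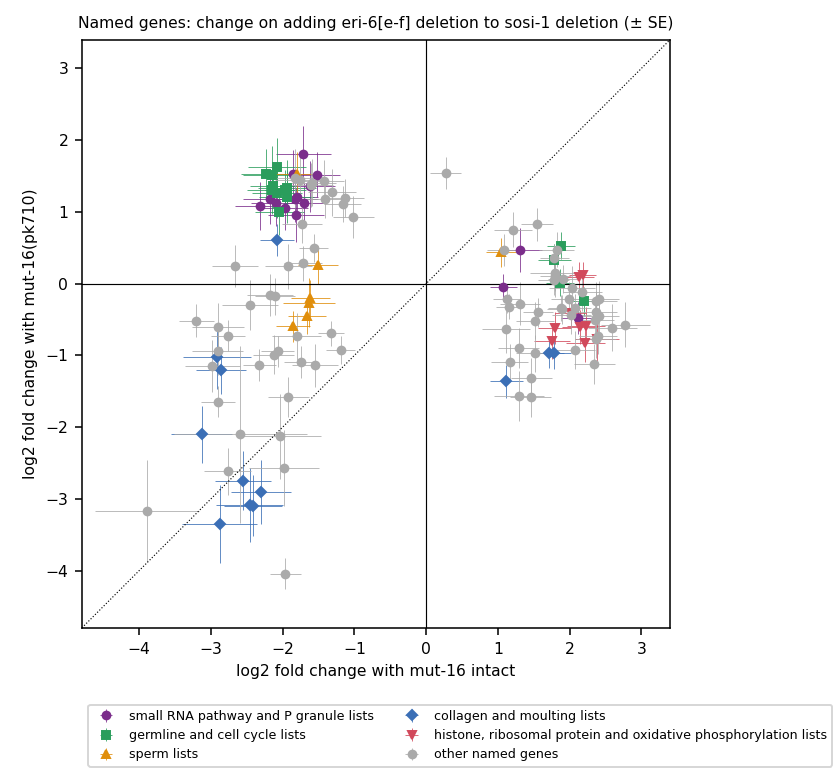
Log2 fold change on adding the eri-6[e-f] deletion to the sosi-1 deletion, with mut-16 intact (x axis) and with mut-16(pk710) (y axis), for the genes chosen by the naming rule, ± SE from the fit; the dotted line marks equal effects. Small RNA pathway genes such as hrde-1 (-1.85 and 1.52) lie in the upper left. The collagen gene sqt-1 lies near the line at the lower left, while other collagens lie off the line, such as col-117 (difference -1.89).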

How the data were processed

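The authors deposited 1 table per library with estimated counts (expected counts) against gene names, unscaled. Among the tools listed in the submitters' processing notes are Salmon, HISAT2 and cutadapt. No label or header names a tool version, a genome build, an annotation or whether strand was used in counting, so no coordinates are printed and antisense genes cannot be told apart from their partners. Each table lists 47074 entries under 46003 names. Entries under a repeated name were added up, and counts were rounded to whole numbers. Of the names, 45682 matched RefSeq WBcel235, which gave gene spans for 99.6% of the mRNA features tested. Sequences of the locus were not analysed here. Replicate libraries differed beyond sampling noise (chi-square per feature 16.4 to 112.7 within the 2 strains), and each was counted as 1 sample. This spread cannot show that they are independent. Double deletion replicates 1 and 2 were the nearest (16.4), and they differed more from replicate 3 (112.7 and 97.4). Shares of counts are raw, and CPM are TMM-scaled.

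In R 4.3.3 with edgeR 4.0.16, features were filtered with filterByExpr, scaled by TMM and fitted with 1 term per strain over all 24 mRNA libraries (15376 features) and, separately, 24 small RNA libraries (15380). Quasi-likelihood tests were adjusted by Benjamini-Hochberg over all features, and a feature was called at an adjusted p below 0.05 and a change of at least 2-fold. Standard errors follow from the log2 fold change and its F statistic. The common biological coefficient of variation was 0.215 for mRNA and 0.12 for small RNA. The procedure was tested on simulated counts.

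The named genes are (a) the locus entries, mut-16, ergo-1, prg-1 and hrde-1, (b) the 10 largest and 10 smallest changes among called features with a mean of at least 10 CPM and no overlap between the groups, (c) up to 3 called members per list with a mean of at least 5 CPM, plus 1 in the other direction, and (d) the 5 largest gains and losses in CPM. The 39 lists were compiled from name patterns and memory. The members and lists were chosen with earlier results of these data known, so they are not independent support. Alternatives were DESeq2 1.42.0, other scalings and filters, the 6 libraries alone, thinning to equal depth, a replicate block, leaving out each library and, added after seeing the data, an offset for gene span (a natural spline with 5 degrees of freedom on log10 span in each library). Counts limit precision as the depths above show. 1 gene that the naming rule selects in the cell cycle list is not reported here.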

Additional observations from a re-analysis of the deposited data

Results flagged for a closer look

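At 23 genes named by the locus or by the size of their change, the effect of adding the eri-6[e-f] deletion to sosi-1 differed between animals with mut-16 intact and animals with mut-16(pk710) in the interaction test of the fit across all features. Values are log2 fold change with mut-16 intact minus that with it mutated. The rises and falls were picked by their fold change with mut-16 intact. That fold change enters this test, so the choice itself favours a difference at these genes. Since the interaction was called at 46.6% of all features, such a difference is common in these libraries.

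At the locus and in the Argonaute pathway, the difference was -1.27 for eri.67, 2.08 for eri6.1, -3.03 for mut-16, -3.003 for ergo-1, -2.27 for prg-1 and -3.37 for hrde-1. With mut-16 mutated the entry eri.67 rose, while it was not called with mut-16 intact, and eri6.1 fell in both backgrounds.

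For the 10 genes with the largest rises the difference was 3.47 for nduv-3, 2.86 for pen-2, 3.14 for cox-17, 2.76 for W03C9.5, 2.62 for clec-97, 3.12 for tin-13, 2.86 for urm-1, 2.63 for aps-3, 3.21 for F23A7.8 and 3.35 for F23A7.4. With mut-16 mutated their log2 fold changes lay between -1.12 at nduv-3 and -0.22 at aps-3.

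Among the largest falls the difference was -2.69 for pgp-1, -1.83 for cyp-13A5, -1.89 for col-117, -1.96 for M04C3.1, -1.26 for math-4, -2.04 for F38B6.4 and -2.91 for R08E3.2. Without sosi-1 replicate 2 the value for col-117 was -1.09 (adjusted p = 0.112). With the offset for gene span that for M04C3.1 was -0.75 (adjusted p = 0.201) and that for math-4 -0.70, below 2-fold, as it was without sosi-1 replicate 1 (-0.93). No difference was called for col-154, cut-2 and sdz-24, the other 3 of the 10 falls, although with the offset col-154 was at -1.92 (adjusted p = 0.00262) and sdz-24 at -1.06 (adjusted p = 0.0233), and with library size alone col-154 was at -1.50 (adjusted p = 0.0228). The p-values are edgeR's, adjusted by Benjamini-Hochberg.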

How the results depend on the processing

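For single mRNA genes 2073 alternative values kept the direction and side of the threshold and 97 values, in 39 genes, lost the call, 28 genes with the offset for gene span and 19 with library size alone. With library size alone 897 features were higher and 6282 lower in mRNA, the interaction was higher at 2058 and lower at 4994, and 44 features had more small RNA. With no minimum fold 4099 mRNA features were higher, and with only features at 10 CPM or more 2069 of 8896 were lower. The 12 libraries alone gave 4089 interactions higher and 3203 lower. Leaving out 1 library gave 2449 to 2730 higher and 3318 to 3996 lower in mRNA, 3142 to 3774 and 3394 to 3678 for the interaction, and 50 to 65 and 1068 to 1517 in small RNA, where leaving out prg-1; hrde-1 replicate 1 gave 74 and 1465. Signs turned for eri.67 mRNA (-0.309 with library size alone), for the interaction at cut-2 (-0.004 with library size alone, -0.482 with the offset) and at sdz-24 (0.004 with the 12 libraries alone, and from -0.441 to 0.312 with 1 library left out), and for small RNA of mut-16 (-0.012) and ergo-1 (-0.004) with library size alone and of prg-1 (from -0.086 to 0.169 with 1 library left out). None of the values whose sign turned was called, and the cause was not tested.

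The deviations of same-numbered libraries from their strain means correlated across genes at -0.32, 0.06 and -0.33. Differently numbered libraries correlated at -0.29 to 0.34. Deviations from a mean of 3 libraries are tied to each other, so these values cannot show whether the libraries were paired. With the replicate number as a block 2629 features were higher and 3775 lower in mRNA, 3570 and 3592 in the interaction and 64 and 1349 in small RNA. With the offset for gene span and the block together 2026 were higher and 2746 lower.

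Depth limits low entries such as eri6.1, and with 3 libraries per strain, 1 strain per genotype and no wild type, strain and deletion cannot be told apart.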
